A study of Mus musculus with 12 samples.

Results

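The comparison described here is the net change in gene expression between 2 h and 6 h of retinoic acid (RA) exposure in KH2 cells, a mouse embryonic stem (ES) cell line that can carry inducible transgenes; no transgene is named in the labels. It rests on 6 of the 12 arrays of the series, 3 labelled with 2 h of RA and 3 labelled with 6 h, and takes in all 18194 genes that had at least 1 probe set named for that gene alone. Cells of both groups were grown on feeder cells, were given a differentiation medium with serum and 0.3 µM RA, and were replated on gelatin for 30 min before RNA was taken. Medium and RA were therefore the same in both groups, but no array was made after 6 h in that medium without RA, so the time with RA and the time in the medium cannot be told apart. The other 6 arrays, 3 without RA and 3 at 4 h, entered the fit of the spread, and the 4 h arrays show the path between the 2 times. The labels conflict on whether attached or unattached cells were collected after replating. They do not say whether arrays A, B and C of a group came from separate cultures. The p-values therefore measure the spread between arrays within all 4 groups, which may be technical.

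RA is a vitamin A derivative that binds nuclear RA receptors, which sit on DNA as heterodimers with retinoid X receptors and exchange corepressors for coactivators when RA is bound. In ES cells and in the early embryo it switches on the 3′ members of the Hox clusters and genes of its own breakdown, and it patterns the hindbrain and spinal cord. ES cells are held in the naive pluripotent state by LIF acting through STAT3 and by a circuit of transcription factors, and they leave it under FGF and ERK signalling.

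Values are the deposited log2 signals, and a difference is the 6 h mean minus the 2 h mean on that scale with the standard error (SE) of a limma fit over all 12 arrays. The SE of a gene thus also includes its spread at 4 h and without RA. A gene was said to rise or fall where its limma p, adjusted by the Benjamini-Hochberg method over all 18194 genes, was under 0.05. Array medians lay between 6.05 and 6.10. Genes whose mean at either time lay below 6.07, the median of all deposited values, were not tested against background. They are called dim at that time. Their log2 differences, SEs and calls come from the same fit, and no fold change is given for them. Arrays of a group correlated across all deposited probe sets at 0.997 to 0.998, both within 2 h and within 6 h, and arrays of different times at 0.991 to 0.992. The deviations of single arrays from their group mean had an SD across genes of 0.0816 to 0.0889 at 2 h and 0.0888 to 0.106 at 6 h, and of 0.130 to 0.197 without RA. Gapdh and Actb, common reference genes, differed by -0.02 ± 0.05 (SE) and -0.02 ± 0.06 (SE), and neither passed the test.

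Between 2 h and 6 h, 3107 genes rose (17.1% of those tested) and 2739 fell (15.1%), and 7725 genes had an unadjusted p under 0.05. Most differences were small. The median log2 difference was 0.40 among the genes that rose and -0.39 among those that fell, against -0.04 over all genes, and 135 rose and 124 fell by at least 2-fold. Of the 5846 genes called, 5793 had no overlap between the 3 arrays of 2 h and the 3 arrays of 6 h. Arrays were separated in this way in 51.9% of all genes tested. Among the called genes, 160 that rose and 484 that fell lay below the median of all values on all 6 arrays.

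**Figure D1:**
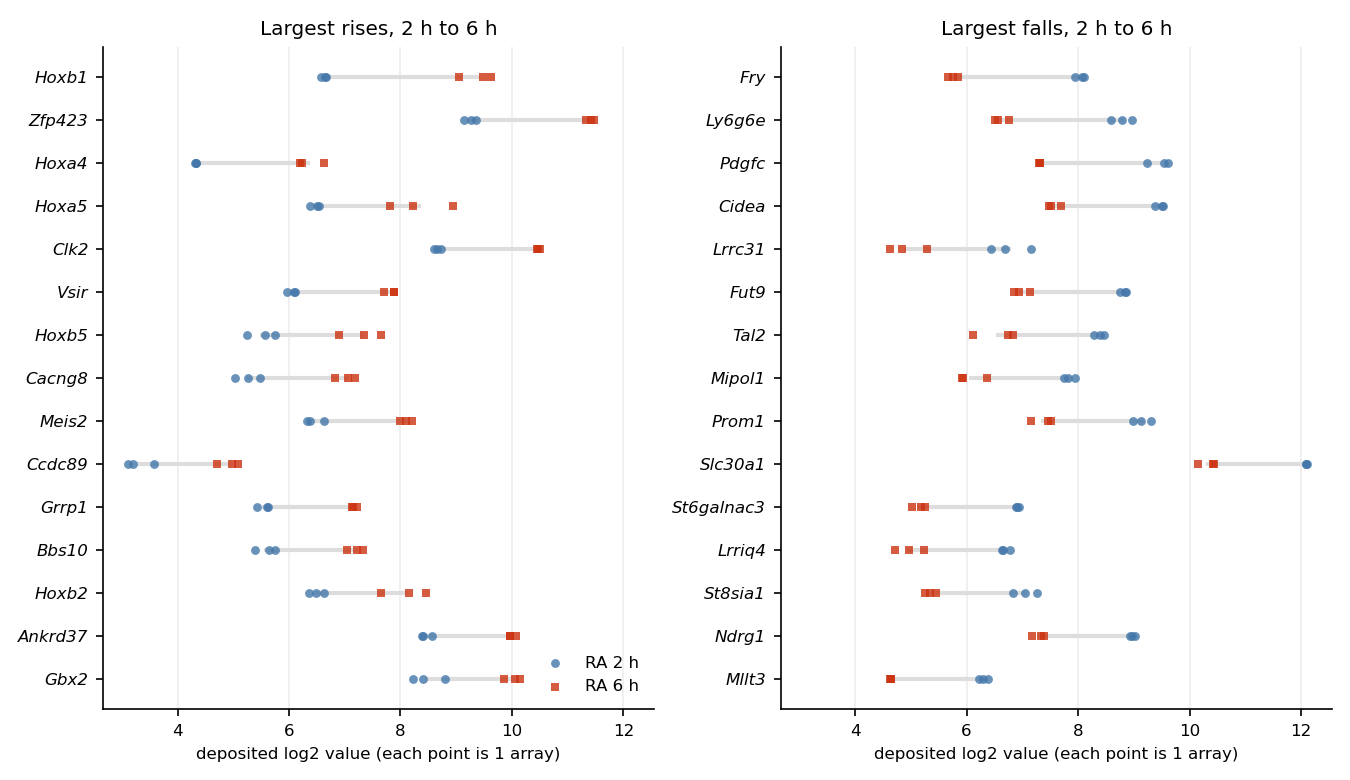
Deposited log2 values (horizontal axis, 1 point per array) of the 15 genes with the largest rises and the 15 with the largest falls between 2 h (blue circles) and 6 h (red squares) of RA; grey lines join the means of 3 arrays. The genes drawn are those called with the largest differences. These differences run from Hoxb1 with 2.76 to Gbx2 with 1.55, and from Fry with -2.29 to Mllt3 with -1.66.

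The largest rise belonged to Hoxb1, the homeobox gene of the 3′ end of the Hoxb cluster that marks rhombomere 4 of the hindbrain. Its 3 arrays read 6.64, 6.66 and 6.57 at 2 h and 9.05, 9.63 and 9.48 at 6 h, a difference of 2.76 ± 0.17 (SE), or 6.77-fold (limma adjusted p = 1.86e-06). Arrays without RA averaged 3.69 ± 0.25 (SD, n = 3), so Hoxb1 was already above that level at 2 h and went on rising. The 300-base window around its start (250 bases before to 50 after, RefSeq, GRCm38.p6, chr11:96365508-96365807, plus strand) is shown because no other gene rose as much.
Hoxb1: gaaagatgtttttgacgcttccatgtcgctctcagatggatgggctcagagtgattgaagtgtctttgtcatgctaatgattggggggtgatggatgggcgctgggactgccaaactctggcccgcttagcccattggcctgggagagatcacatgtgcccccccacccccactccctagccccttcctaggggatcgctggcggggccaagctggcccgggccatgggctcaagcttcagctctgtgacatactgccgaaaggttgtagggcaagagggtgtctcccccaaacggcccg
This window holds no AGGTCA, an element of nuclear receptors, on either strand. AGGTCA was present in 14.3% of the 18110 windows available for the genes tested, in 10.7% of windows of genes that rose, in 13.9% of those of genes that fell and in 15.3% of those not called. These windows belong to 14453 of the 18194 genes, and below they stand as the windows of all genes tested. Genes without a window, among them those of a chromosome that was left out, do not enter any motif share.

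Zfp423, a zinc-finger cofactor of RA receptors and of BMP-activated SMADs, rose next most. Its arrays read 9.36, 9.27 and 9.14 at 2 h and 11.33, 11.42 and 11.47 at 6 h, a difference of 2.15 ± 0.12 (SE) or 4.43-fold (limma adjusted p = 1.18e-06). Its mean without RA was 9.40 ± 0.19 (SD, n = 3), close to the 2 h mean of 9.26. Other large rises with levels above the median were Hoxa5, Clk2, Meis2, Hoxb2, Ankrd37 and Gbx2, between 1.55 and 1.85. From dim levels at 2 h rose Hoxa4 (2.02 ± 0.22, SE), the immune checkpoint receptor gene Vsir (1.78 ± 0.11), Hoxb5 (1.78 ± 0.23), the AMPA receptor auxiliary subunit gene Cacng8 (1.77 ± 0.19), Ccdc89 (1.62 ± 0.14, dim at both times), Grrp1 (1.61 ± 0.10) and the ciliopathy gene Bbs10 (1.61 ± 0.26). Hoxa5 was 1.07, Hoxa4 1.15, Vsir 1.12, Cacng8 0.98 and Ccdc89 0.87 (log2 difference) as the mean over all probe sets of the gene.

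Fry, whose product is a large protein that binds microtubules, had the largest fall. Its arrays read 7.95, 8.06 and 8.10 at 2 h and 5.75, 5.84 and 5.66 at 6 h, a difference of -2.29 ± 0.07 (SE, limma adjusted p = 6.29e-09), with the 6 h level dim. That value is of its brightest probe set; its other 3 gave -0.26, -0.13 and -0.35, of which the last passed. Ly6g6e fell by 2.16 ± 0.18 (SE), or 4.48-fold. The growth factor gene Pdgfc fell by 2.16 ± 0.19 (SE), or 4.46-fold: its arrays read 9.23, 9.61 and 9.55 at 2 h and 7.31, 7.31 and 7.30 at 6 h. Separation of the arrays was part of the rule by which these largest changes were chosen.

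Fut9, the fucosyltransferase that makes the Lewis X (SSEA-1) antigen of mouse ES cells, read 8.75, 8.87 and 8.83 at 2 h and 6.95, 7.13 and 6.85 at 6 h, a difference of -1.84 ± 0.10 (SE) or 3.58-fold (limma adjusted p = 1.46e-06). The sialyltransferase genes St6galnac3 and St8sia1 fell by 1.75 ± 0.09 (SE) and 1.70 ± 0.15 (SE) to dim levels. Prom1, which encodes the membrane protein CD133, fell by 1.77 ± 0.14 (SE) or 3.4-fold, and Slc30a1, a zinc exporter, by 1.76 ± 0.42 (SE) or 3.38-fold, from arrays at 12.09, 12.11 and 12.09 to arrays at 10.43, 10.15 and 10.43. Ndrg1, a stress- and hypoxia-responsive gene, fell by 1.68 ± 0.11 (SE), and each of its 5 probe sets fell. Mipol1 fell by 1.77 ± 0.13 (SE); Lrrc31 and Lrriq4 fell by 1.84 ± 0.24 (SE) and 1.72 ± 0.17 (SE) to dim levels. Mllt3, a subunit of the super elongation complex, fell by 1.66 ± 0.08 (SE) to a dim level on its brightest probe set, but by 0.15 on the probe set without a suffix that marks possible matches to several transcripts, where the call was lost (limma adjusted p = 0.187). St6galnac3 was -0.87 and Mipol1 -0.69 (log2 difference) when all probe sets of the gene were averaged.

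In Cidea and Tal2 the fall was a return towards the level without RA. Cidea, a lipid droplet protein gene, averaged 6.64 without RA, read 9.38, 9.50 and 9.52 at 2 h and 7.69, 7.47 and 7.52 at 6 h, a difference of -1.91 ± 0.14 (SE) or 3.75-fold (limma adjusted p = 5.41e-06). Tal2, a basic helix-loop-helix factor gene, averaged 5.32 without RA, read 8.28, 8.40 and 8.47 at 2 h and 6.74, 6.83 and 6.12 at 6 h, a difference of -1.82 ± 0.20 (SE) or 3.53-fold (limma adjusted p = 5.95e-05). At 6 h both genes were above their values without RA and below those at 2 h on every array.

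The 47 gene lists that follow are described by how many measured members rose or fell, to be read against 17.1% and 15.1% of all genes, and by the median of their differences, to be read against -0.04. They hold 1060 measured genes, and 91 listed genes had no probe set of their own and were not analysed here.

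**Figure D2:**
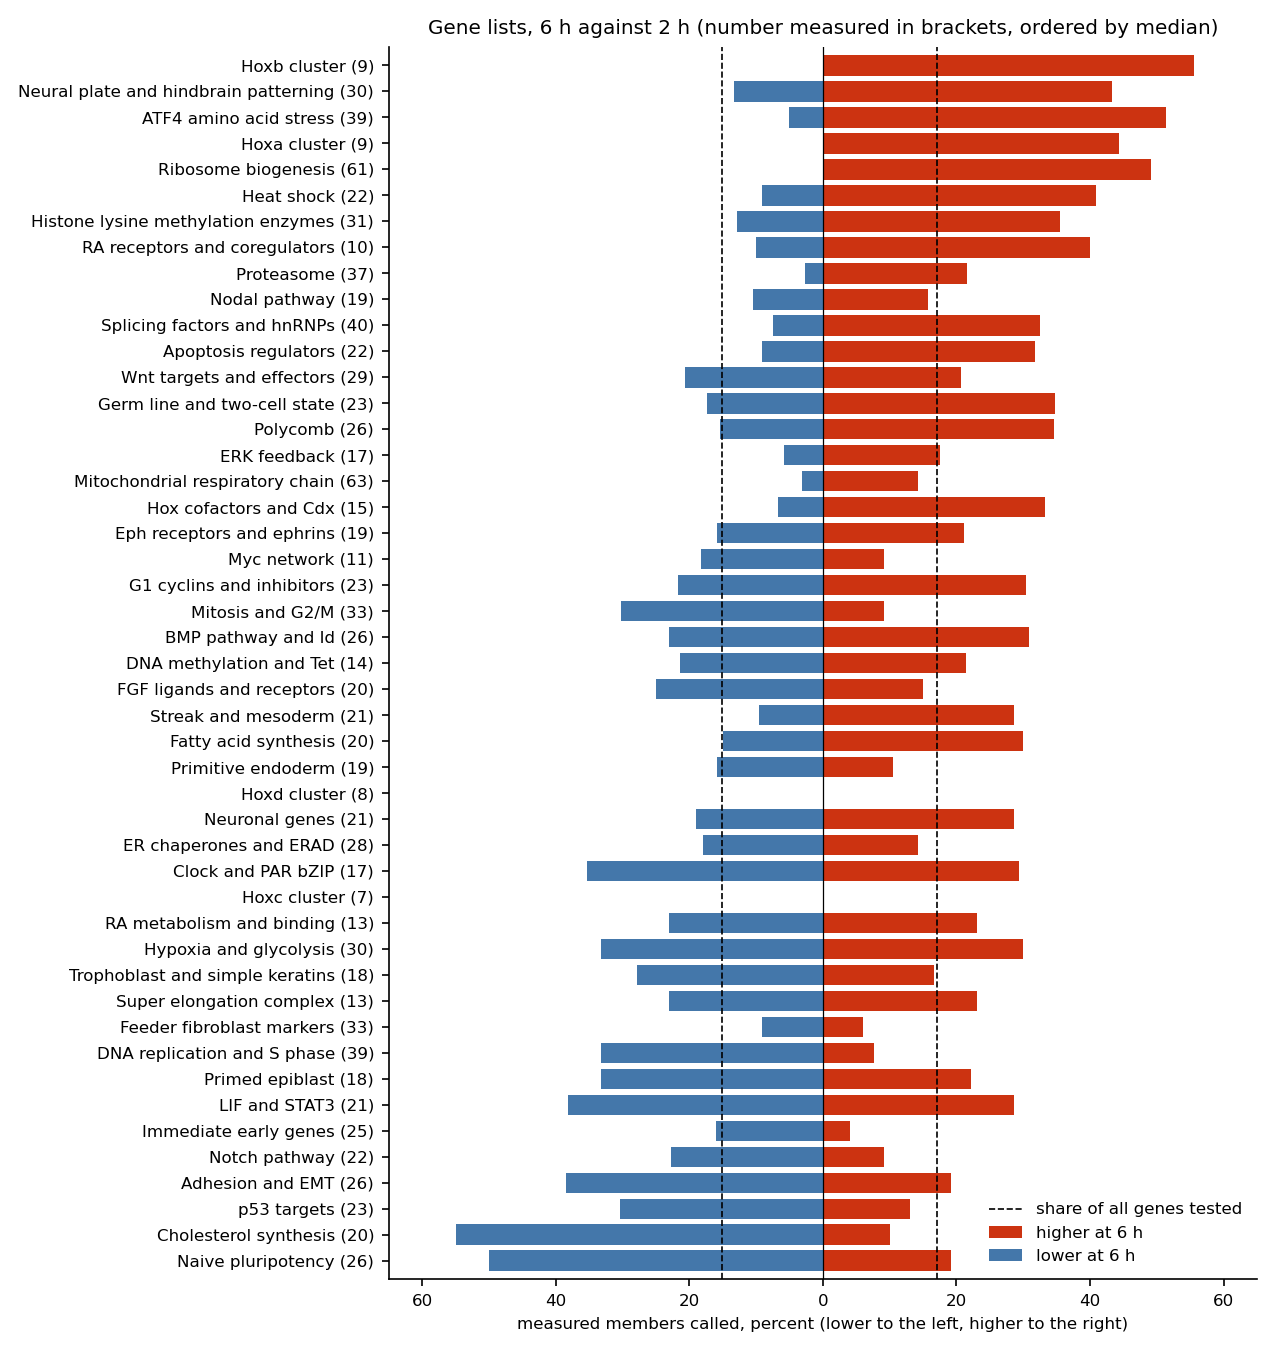
Percent of the measured members of each of 47 gene lists that fell (blue, to the left) or rose (red, to the right) between 2 h and 6 h, ordered by the median difference of the list; dashed lines mark the shares of all genes tested, 15.1% lower and 17.1% higher. The Hoxb cluster and the ATF4 and ribosome biogenesis lists reach furthest to the right, and the cholesterol synthesis and naive pluripotency lists furthest to the left.

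Hox genes are given by cluster, and differences between clusters were not tested. In Hoxa, 4 of 9 measured members rose and 0 fell (median 0.26), and in Hoxb 5 of 9 rose and 0 fell (median 0.80). Hoxa5 read 6.38, 6.5 and 6.54 at 2 h and 7.81, 8.23 and 8.95 at 6 h, a rise of 1.85 ± 0.33 (SE) or 3.62-fold (limma adjusted p = 0.00124). Hoxb2 read 6.49, 6.37 and 6.64 at 2 h and 7.66, 8.16 and 8.46 at 6 h, a rise of 1.59 ± 0.25 (SE) or 3.02-fold. In both genes the 6 h arrays were further apart than the 2 h arrays, with array C highest, but the lowest 6 h array stayed above the highest 2 h array. Hoxa2 (0.58 ± 0.13, SE) rose among dim values. Hoxb4 rose by 0.80 ± 0.15 (SE) or 1.74-fold. Hoxb13, at the far 5′ end of its cluster, rose by 1.31 ± 0.11 (SE) from a level just under the median of all values.

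Hoxa7 passed narrowly (0.29 ± 0.10, SE), and its call was lost without RA 2 h array A, B or C or RA 6 h array B or C, with differences of 0.23 to 0.32, and after quantile normalization (0.27). Of the Hoxc genes 0 of 7 passed, with Hoxc4 at 0.33 ± 0.12 (SE, limma adjusted p = 0.0607). Hoxc4 passed without array A or C of the no RA group, with only the 6 arrays compared in the fit (limma adjusted p = 0.0135), with only the 9 RA arrays (0.0398) and with array weights (0.0303). Of the Hoxd genes 0 of 8 passed, all below the median of all values at both times, Hoxd1 at 0.31 ± 0.17 (SE) and Hoxd10 at -0.18.

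Among Hox cofactors and Cdx genes, 5 of 15 rose and 1 fell (median 0.01). Meis2, a TALE homeodomain partner of Hox proteins, read 6.37, 6.63 and 6.33 at 2 h and 7.99, 8.21 and 8.09 at 6 h, a rise of 1.66 ± 0.15 (SE) or 3.15-fold, and all 4 of its probe sets rose. Pbx2, another partner, rose by 0.98 ± 0.12 (SE) or 1.97-fold (limma adjusted p = 9.21e-05). Cdx1, a caudal homeobox gene that drives Hox expression, rose from 8.63 ± 0.09 to 9.44 ± 0.19 (SD, n = 3 each), by 0.81 ± 0.13 (SE). Meis1 rose by 1.12 ± 0.16 (SE) among dim values on its brightest probe set, while its other 2 probe sets gave 0.10 and -0.01 and did not pass. Tgif1, a TALE repressor, fell by 0.31 ± 0.06 (SE); without array A or C of the no RA group 2 members fell. Pbx2 was 0.38 (log2 difference) averaged over all probe sets of the gene.

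Of 13 measured genes of RA metabolism and binding, 3 rose and 3 fell (median -0.06), none by more than 0.35 downward, and only 1 fell without RA 2 h array B. Stra6, the cellular receptor for retinol-binding protein, read 6.61, 6.39 and 6.86 at 2 h and 7.20, 7.09 and 7.39 at 6 h, a rise of 0.61 ± 0.11 (SE) or 1.53-fold. Crabp2, which carries RA to its nuclear receptors, rose by 0.46 ± 0.08 (SE) or 1.38-fold. Cyp26a1, the enzyme that breaks RA down, read 12.07, 11.87 and 11.82 at 2 h, 12.64, 12.66 and 12.69 at 4 h and 12.27 on all 3 arrays at 6 h, a net rise of 0.35 ± 0.08 (SE) or 1.27-fold (limma adjusted p = 0.00784). Without RA it averaged 5.81, so nearly all of its change lay before 2 h, and its 4 h arrays were above those of both other times.

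Of 10 measured receptors and coregulators, 4 rose and 1 fell (median 0.18); the fall was lost without RA 2 h array B or C or RA 6 h array B or C, and 2 members fell without array C of the no RA group. Rarg, an RA receptor gene, rose by 0.57 ± 0.10 (SE) or 1.48-fold, Rxrb, a heterodimer partner, by 0.44 ± 0.05 (SE) or 1.35-fold, and Ncoa3, a coactivator, by 0.41 ± 0.08 (SE) or 1.33-fold. Rarb, a receptor gene that is itself a target of RA, read 7.0, 6.85 and 7.18 at 2 h and 6.77, 6.78 and 7.04 at 6 h. These arrays overlapped, and the difference of -0.15 ± 0.16 (SE) did not pass (limma adjusted p = 0.533), although Rarb averaged 5.13 without RA.

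**Figure D3:**
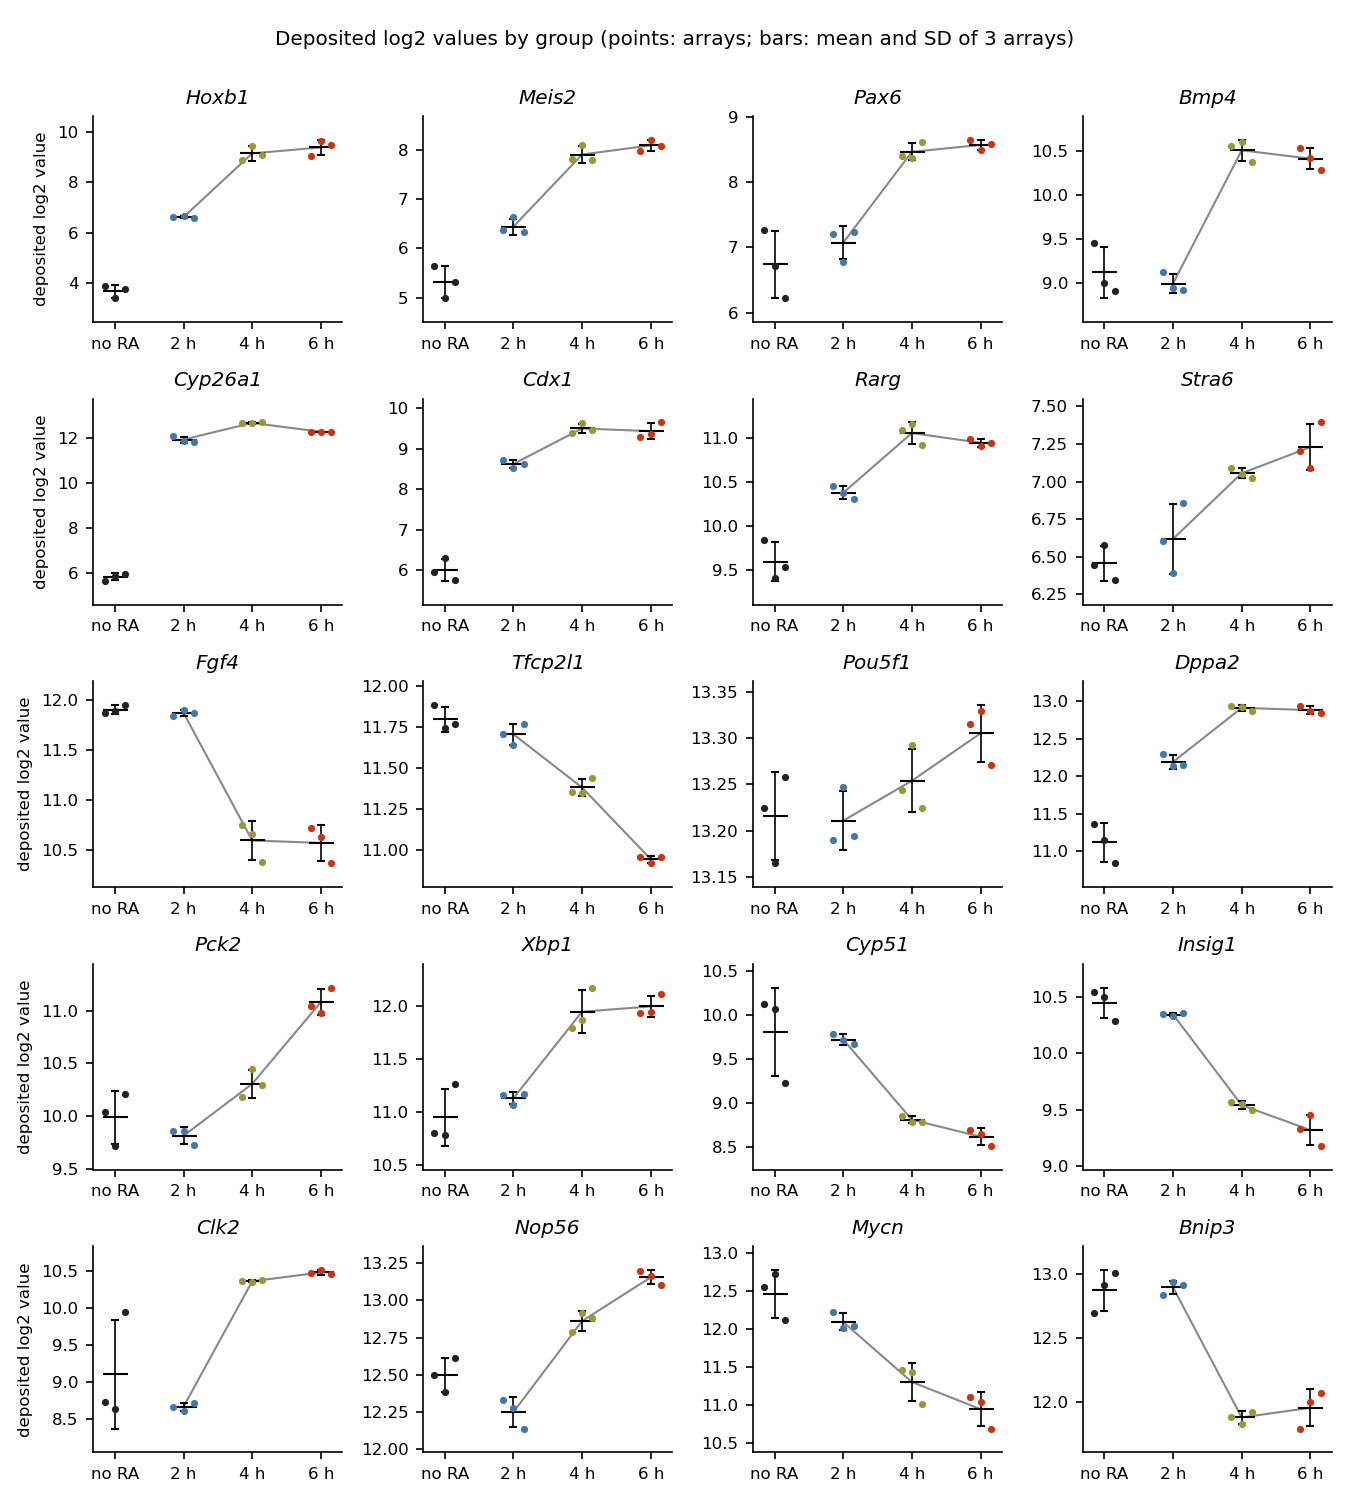
Deposited log2 values of 20 genes (vertical axis, scaled for each gene) without RA and at 2, 4 and 6 h of RA; points are arrays, horizontal bars the mean of 3 arrays, error bars the SD, and lines join the means of the RA times. Most rises and falls were largely complete at 4 h, as in Bmp4 and Fgf4; Pck2 and Tfcp2l1 went on changing to 6 h, and Pou5f1 differs by under 0.2 between its lowest and highest array.

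Of 30 patterning genes of the neural plate and hindbrain, 13 rose and 4 fell (median 0.28), although the count of rises was 8 without RA 2 h array A, RA 6 h array A or RA 6 h array C. Gbx2, which sets the border between midbrain and hindbrain, read 8.80, 8.41 and 8.22 at 2 h and 10.15, 9.86 and 10.06 at 6 h, a rise of 1.55 ± 0.23 (SE) or 2.92-fold (limma adjusted p = 0.000438). Pax6, a paired-box regulator of neural progenitors, read 7.20, 6.78 and 7.24 at 2 h and 8.65, 8.49 and 8.58 at 6 h, a rise of 1.5 ± 0.21 (SE) or 2.83-fold. En2, a midbrain and anterior hindbrain homeobox gene, rose by 1.06 ± 0.10 (SE) or 2.09-fold, and Nr6a1, a nuclear receptor that silences pluripotency genes, by 0.88 ± 0.06 (SE) or 1.83-fold. Hesx1, a forebrain homeobox gene, fell by 1.14 ± 0.10 (SE) or 2.21-fold, and Sox3, a neural progenitor factor, by 0.55 ± 0.11 (SE) or 1.46-fold. Nkx6-1 fell by 0.50 ± 0.10 (SE) among dim values. Pax6 was 0.60, Nr6a1 0.56 and Sox3 -0.35 (log2 difference) as the mean over all probe sets of the gene.

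Of 21 neuronal genes, 6 rose and 4 fell (median -0.05), and 3 rose without RA 2 h array A or RA 6 h array B. Map2, a dendritic microtubule protein gene, fell by 1.08 ± 0.11 (SE) to a dim level, Elavl4, a neuronal RNA-binding protein gene, by 0.49 ± 0.08 (SE) to a dim level, and Pou3f2 by 0.27 ± 0.06 (SE). Gadd45g rose by 0.42 ± 0.08 (SE) or 1.34-fold, and Nhlh2 by 0.59 ± 0.09 (SE) among dim values. In the Notch pathway 2 of 22 rose and 5 fell (median -0.15). The receptor genes Notch1 and Notch3 fell by 0.76 ± 0.10 (SE) and 0.78 ± 0.14 (SE), 1.69-fold and 1.71-fold. The Notch target Hes1 fell by 0.54 ± 0.11 (SE), and Rbpj, the DNA-binding effector, by 0.36 ± 0.07 (SE). Notch4 went the other way, with a rise of 0.78 ± 0.18 (SE) or 1.71-fold, as did the glycosyltransferase gene Rfng with 0.43 ± 0.06 (SE). Map2 was -0.38 and Notch4 0.32 (log2 difference) when all probe sets of the gene were averaged.

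In the list of BMP signalling and Id genes, 8 of 26 rose and 6 fell (median -0.01). Bmp4, a ligand, read 9.12, 8.94 and 8.92 at 2 h and 10.54, 10.42 and 10.29 at 6 h, a rise of 1.42 ± 0.13 (SE) or 2.68-fold (limma adjusted p = 1.66e-05). The receptor-activated SMAD gene Smad1 rose by 0.82 ± 0.15 (SE) or 1.77-fold, the inhibitory Smad6 by 1.14 ± 0.25 (SE) or 2.20-fold and the homeobox gene Dlx3 by 0.69 ± 0.09 (SE) or 1.61-fold. The ligand Bmp7 fell by 0.51 ± 0.09 (SE) or 1.42-fold. Id3, an Id gene that BMP is known to induce, was lower at 6 h by 1.08 ± 0.38 (SE, limma adjusted p = 0.0463), but the call was lost on leaving out any of the 6 arrays, with differences of -1.03 to -1.11, and under a trended and robust variance model. The count of falls was 2 without RA 2 h array C or RA 6 h array B and 3 without RA 2 h array B or RA 6 h array C. Dlx3 was 0.31 and Bmp7 -0.93 (log2 difference) averaged over all probe sets of the gene.

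FGF ligands and receptors gave 3 rises and 5 falls of 20 (median -0.03). Fgf4, the autocrine ligand that drives ES cells out of the naive state, read 11.84, 11.90 and 11.87 at 2 h and 10.72, 10.62 and 10.36 at 6 h, a difference of -1.30 ± 0.10 (SE) or 2.46-fold (limma adjusted p = 7.94e-06). Fgf15 and Fgf13 fell by 0.76 ± 0.10 (SE) and 0.67 ± 0.09 (SE). Fgfr3 and Fgfr1 rose by 0.74 ± 0.08 (SE) and 0.35 ± 0.09 (SE), 1.67-fold and 1.27-fold, and Fgf21 by 0.62 ± 0.16 (SE) from a dim level. Fgfr2 fell by 1.03 ± 0.22 (SE) on its brightest probe set and by 0.70 on another, which also passed. On the probe set without a suffix it fell by 0.02 and did not pass (limma adjusted p = 0.932). Fgf5, a marker of the primed epiblast, was dim and differed by 0.12 ± 0.27 (SE, limma adjusted p = 0.779). Fgf13 was -0.43 and Fgfr3 0.34 (log2 difference) as the mean over all probe sets of the gene, and Fgfr1 was 0.60 on the probe set without a suffix.

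ERK feedback genes gave 3 rises and 1 fall of 17 (median 0.03). Etv4, an ETS factor gene downstream of FGF, rose by 1.16 ± 0.11 (SE) or 2.24-fold and Il17rd, an FGF receptor antagonist, by 0.61 ± 0.08 (SE) or 1.53-fold. Without array B of the no RA group 2 members fell, and without array C of that group 5 rose and 4 fell. Of 25 immediate early genes 1 rose and 4 fell (median -0.12), counts that changed with nearly every array left out: 0 rose without RA 2 h array A or RA 6 h array A, B or C, 2 rose without RA 2 h array C or array C of the no RA group, 2 fell without RA 2 h array B or C or RA 6 h array B, and 1 fell without RA 6 h array C. Egr1, a serum- and ERK-responsive zinc finger gene, fell by 0.56 ± 0.10 (SE) or 1.48-fold. Fos read 12.59, 12.37 and 12.45 at 2 h and 12.44, 12.20 and 12.32 at 6 h; the arrays overlapped, and the difference of -0.15 ± 0.11 (SE) did not pass.

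Wnt targets and effectors gave 6 rises and 6 falls of 29 (median 0.06). The ligand genes Wnt8a, from a dim level, and Wnt3a rose by 1.15 ± 0.19 (SE) and 0.67 ± 0.13 (SE), and Tcf7l2, a nuclear effector, by 0.55 ± 0.07 (SE). The secreted antagonist genes Sfrp1 and Sfrp2 fell by 0.93 ± 0.08 (SE) and 0.62 ± 0.11 (SE), the receptor gene Fzd5 by 0.58 ± 0.10 (SE) and the cyclin gene Ccnd1 by 0.48 ± 0.08 (SE). In the Nodal pathway 3 of 19 rose and 2 fell (median 0.08), and 6 rose and 4 fell without array C of the no RA group. Inhba, an activin subunit gene, rose by 1.05 ± 0.25 (SE) or 2.07-fold, Foxh1, a SMAD partner, by 0.44 ± 0.07 (SE), and the inhibitory Smad7 by 0.36 ± 0.07 (SE). Nodal itself fell by 0.56 ± 0.11 (SE) or 1.47-fold, and Pcsk6, a protease that matures it, by 0.28. Among Eph receptors and ephrins 4 of 19 rose and 3 fell (median 0.01), with Efna1 (1.37 ± 0.30, SE) and Epha7 (0.83 ± 0.16, SE) rising from dim levels and Epha2 falling by 0.72 ± 0.18 (SE) or 1.65-fold. Tcf7l2 was 0.32, Inhba 0.58 and Epha7 0.27 (log2 difference) when all probe sets of the gene were averaged, and Foxh1 was 0.27 on the probe set without a suffix.

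In naive pluripotency, 13 of 26 genes fell, 5 rose and 8 did not pass (median -0.25), all 26 above the median of all values. Fgf4 led the falls. The nuclear receptor genes Nr0b1 and Nr5a2 fell by 0.93 ± 0.18 (SE) and 0.77 ± 0.19 (SE), 1.90-fold and 1.71-fold. Tfcp2l1, a LIF-dependent factor of the naive circuit, read 11.71, 11.64 and 11.77 at 2 h and 10.96, 10.92 and 10.96 at 6 h, a difference of -0.76 ± 0.06 (SE) or 1.69-fold (limma adjusted p = 8.54e-06). Tfcp2l1 was -0.33 (log2 difference) averaged over all probe sets of the gene.

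Zfp42 (Rex1), a marker of the naive state, fell by 0.67 ± 0.11 (SE) or 1.59-fold and Klf4 by 0.59 ± 0.08 (SE) or 1.5-fold. The core factor genes Nanog and Sox2 fell by 0.38 ± 0.08 (SE) and 0.29 ± 0.07 (SE), 1.30-fold and 1.22-fold. Pou5f1 (Oct4) read 13.19, 13.25 and 13.20 at 2 h and 13.31, 13.33 and 13.27 at 6 h; its difference of 0.09 ± 0.05 (SE) did not pass (limma adjusted p = 0.200), though it did under a trended and robust variance model (limma adjusted p = 0.0455). Dppa2 and Dppa4, a pair of chromatin factors of pluripotent cells, rose by 0.69 ± 0.11 (SE) and 0.47 ± 0.07 (SE), 1.62-fold and 1.39-fold, and the dioxygenase gene Tet2 by 0.48 ± 0.09 (SE) or 1.4-fold.

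Of 18 primed epiblast genes, 4 rose and 6 fell (median -0.12), with Etv4 and Wnt8a rising and Fgf15, Cldn6 (-0.67 ± 0.13, SE) and Sox3 falling. Of 21 LIF and STAT3 genes, 6 rose and 8 fell (median -0.12). Lifr and Il6st encode the chains of the LIF receptor. Lifr read 9.67, 9.82 and 9.78 at 2 h and 8.93, 8.88 and 8.74 at 6 h, a difference of -0.91 ± 0.10 (SE) or 1.88-fold (limma adjusted p = 7.06e-05), on its brightest probe set; its other 2 probe sets gave -0.16 and -0.08 and did not pass. Il6st (gp130) read 9.96, 9.96 and 9.99 at 2 h and 9.33, 9.17 and 9.25 at 6 h, a difference of -0.72 ± 0.08 (SE) or 1.65-fold (limma adjusted p = 4.04e-05). Bcl3, a nuclear IκB protein gene, rose by 1.13 ± 0.10 (SE) or 2.19-fold, and Socs2, a cytokine feedback inhibitor, by 0.62 ± 0.16 (SE) or 1.54-fold; Gbx2, listed here too as a STAT3 target, rose as given above. The count of rises was 3 without RA 2 h array C or RA 6 h array A or C, and that of falls 5 without RA 2 h array A or RA 6 h array B. Lifr was -0.38 (log2 difference) as the mean over all probe sets of the gene.

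In the amino acid stress response driven by the transcription factor ATF4, 20 of 39 measured genes rose, 2 fell and 17 did not pass (median 0.26), and 1 fell without RA 2 h array A, B or C or RA 6 h array B or C. Pck2, the mitochondrial enzyme of gluconeogenesis, read 9.86, 9.86 and 9.72 at 2 h and 11.05, 10.98 and 11.22 at 6 h, a rise of 1.27 ± 0.12 (SE) or 2.41-fold (limma adjusted p = 1.86e-05). Vldlr, a lipoprotein receptor gene, rose by 0.79 ± 0.16 (SE) or 1.73-fold, but its probe set without a suffix gave 0.31 and did not pass (limma adjusted p = 0.102). Nupr1, a stress-induced chromatin protein gene, rose by 0.69 ± 0.19 (SE) or 1.62-fold; the call was lost without RA 2 h array C (0.63) or RA 6 h array C (0.50). Ddit4, an inhibitor of mTORC1 that this list shares with the p53 and hypoxia lists, was higher by 0.89 ± 0.27 (SE), and its call was lost without RA 2 h array A or B or RA 6 h array A, B or C, with differences of 0.85 to 0.91, and under a trended and robust variance model.

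TGATGCAA, the element bound by C/EBP and ATF heterodimers including ATF4, was looked for on both strands of the promoter windows of this list. It was in 9 of 37 windows (24.3%), against 0.685% of the windows of all genes tested. Among windows of genes that rose, that fell and that were not called, the shares were 0.741%, 0.485% and 0.718%. The share in this list thus describes the genes listed and not their change from 2 h to 6 h. Windows of Vldlr (GRCm38.p6, chr19:27216770-27217069, plus strand, 1 of its 2 windows) and Nupr1 (chr7:126625421-126625720, minus strand) are printed because they belong to the 4 largest rises of the list and hold the element, in capitals, here as TTGCATCA on the printed strand.
Vldlr: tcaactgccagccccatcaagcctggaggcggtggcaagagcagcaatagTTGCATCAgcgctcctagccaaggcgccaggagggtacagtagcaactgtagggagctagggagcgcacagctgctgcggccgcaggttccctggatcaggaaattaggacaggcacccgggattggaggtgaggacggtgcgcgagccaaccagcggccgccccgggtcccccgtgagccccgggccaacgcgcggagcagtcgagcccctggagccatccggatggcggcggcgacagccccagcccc
Nupr1: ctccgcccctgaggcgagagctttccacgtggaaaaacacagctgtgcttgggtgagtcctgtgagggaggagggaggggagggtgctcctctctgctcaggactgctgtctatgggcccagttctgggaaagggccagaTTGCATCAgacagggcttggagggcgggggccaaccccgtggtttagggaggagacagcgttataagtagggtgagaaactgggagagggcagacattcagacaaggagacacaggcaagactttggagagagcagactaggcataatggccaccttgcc
Each match describes letters in the window and is not a measured binding site.

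In cholesterol synthesis, 11 of 20 measured genes fell, 2 rose and 7 did not pass (median -0.23), and 1 rose without RA 2 h array C or RA 6 h array A. Cyp51, the lanosterol demethylase, read 9.79, 9.72 and 9.67 at 2 h and 8.70, 8.65 and 8.51 at 6 h, a difference of -1.11 ± 0.18 (SE) or 2.15-fold (limma adjusted p = 0.00071). Insig1, the sterol-responsive protein that holds the SREBP pathway in check, read 10.35, 10.33 and 10.35 at 2 h and 9.33, 9.45 and 9.18 at 6 h, a difference of -1.03 ± 0.08 (SE) or 2.04-fold (limma adjusted p = 7.94e-06). Tm7sf2, a sterol reductase gene, fell by 0.73 ± 0.09 (SE) or 1.66-fold. Msmo1 fell by 0.72 ± 0.06 (SE) or 1.65-fold; its probe set without a suffix gave -0.36 and did not pass (limma adjusted p = 0.145).

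CCAAT, the box bound by NF-Y, was in 16 of 19 promoter windows of the cholesterol list (84.2%), at least 1 window of each of the 16 genes that had one, against 37.4% of windows of all genes tested, both strands counted. Among windows of genes that rose and of genes that fell, the shares were 37.9% and 36.7%. The box was also in 82.1% of windows of the mitosis and G2/M list, so it was not particular to the cholesterol list. The windows of the 2 genes with the largest falls are printed with the box, or its reverse complement, in capitals: Cyp51 on chr5:4104648-4104947, minus strand, and Insig1 on chr5:28071162-28071461, plus strand (GRCm38.p6).
Cyp51: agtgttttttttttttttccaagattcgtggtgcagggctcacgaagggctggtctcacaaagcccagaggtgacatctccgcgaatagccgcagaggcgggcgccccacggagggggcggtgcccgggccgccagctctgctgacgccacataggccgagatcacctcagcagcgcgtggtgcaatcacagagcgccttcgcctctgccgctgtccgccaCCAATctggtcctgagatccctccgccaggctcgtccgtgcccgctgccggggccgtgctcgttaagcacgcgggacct
Insig1: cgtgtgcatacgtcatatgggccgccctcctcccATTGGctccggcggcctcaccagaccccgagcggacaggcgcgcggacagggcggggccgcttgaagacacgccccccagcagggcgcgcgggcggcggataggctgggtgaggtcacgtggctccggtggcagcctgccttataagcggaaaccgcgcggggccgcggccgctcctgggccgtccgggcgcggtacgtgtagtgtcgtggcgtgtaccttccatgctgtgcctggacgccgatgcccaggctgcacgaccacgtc
Among fatty acid synthesis genes, 6 of 20 rose and 3 fell (median -0.03), and 6 fell without array C of the no RA group. Mid1ip1, a regulator of acetyl-CoA carboxylase, rose by 0.78 ± 0.14 (SE) or 1.72-fold, Fasn, the fatty acid synthase, by 0.40 ± 0.08 (SE) or 1.32-fold, and Insig2 by 0.34 ± 0.07 (SE). The acetyl-CoA synthetase gene Acss2 fell by 0.41 ± 0.08 (SE) or 1.33-fold.

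Hypoxia and glycolysis genes moved both ways, with 9 of 30 rising and 10 falling (median -0.08). Ankrd37, a HIF target, read 8.39, 8.56 and 8.40 at 2 h and 9.96, 10.08 and 9.96 at 6 h, a rise of 1.55 ± 0.21 (SE) or 2.92-fold. Pfkfb3, which makes the activator of phosphofructokinase, rose by 0.53 ± 0.09 (SE) or 1.44-fold. The HIF targets Ndrg1 and Bnip3 fell instead: Bnip3, a mitophagy gene, by 0.95 ± 0.09 (SE) or 1.93-fold, and the hexokinase gene Hk1 by 0.98 ± 0.12 (SE) or 1.97-fold. Rises numbered 5 without RA 2 h array A or B or RA 6 h array C, and falls 6 without RA 2 h array B or C. Pfkfb3 was 0.26 (log2 difference) when all probe sets of the gene were averaged.

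Heat shock genes rose in 9 of 22 and fell in 2 (median 0.19), and 5 rose without RA 2 h array B. The inducible chaperone genes Hspa1b and Hsph1 rose by 0.58 ± 0.09 (SE) and 0.56 ± 0.12 (SE), 1.49-fold and 1.47-fold, and the co-chaperone Dnaja1 by 0.42 ± 0.07 (SE) or 1.34-fold, while the small heat shock gene Hspb8 fell by 0.80 ± 0.13 (SE) or 1.74-fold. Of 28 genes of endoplasmic reticulum (ER) chaperones and ER-associated degradation, 4 rose and 5 fell (median -0.05). Xbp1, a transcription factor of the unfolded protein response, rose by 0.87 ± 0.13 (SE) or 1.82-fold, and the ubiquitin ligase Syvn1 by 0.56 ± 0.06 (SE) or 1.47-fold. Edem3 rose by 0.48 ± 0.06 (SE), and the secreted factor Manf fell by 0.26 ± 0.06 (SE). The count of ER falls was 9 without array C of the no RA group, 3 without RA 2 h array C and 2 without RA 2 h array A or B or RA 6 h array A or C. Dnaja1 was 0.66 (log2 difference) averaged over all probe sets of the gene.

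In mitosis and G2/M 10 of 33 fell and 3 rose (median -0.01), and 1 rose without RA 2 h array B or C or RA 6 h array B or C. The spindle genes Nusap1 and Prc1 fell by 0.51 ± 0.07 (SE) and 0.40 ± 0.06 (SE), 1.42-fold and 1.32-fold, and the F-box cyclin gene Ccnf rose by 0.50 ± 0.08 (SE) or 1.41-fold. In replication and S phase 13 of 39 fell and 3 rose (median -0.10). Chaf1b, a subunit of the histone chaperone CAF-1, fell by 0.65 ± 0.05 (SE) or 1.57-fold, the factor E2f1 by 0.38 ± 0.07 (SE) and Gins1 by 0.34 ± 0.07 (SE), while Orc2, an origin recognition subunit, rose by 0.43 ± 0.07 (SE). Falls in this list numbered 6 without RA 2 h array A or RA 6 h array C, 7 without RA 2 h array B and 8 without RA 6 h array B, and rises 1 without RA 2 h array C or RA 6 h array A. Chaf1b was -0.37 (log2 difference) as the mean over all probe sets of the gene.

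Of 23 G1 cyclins and inhibitors 7 rose and 5 fell (median -0.01). Ccng2, a cyclin gene that is high in arrested cells, read 7.97, 8.09 and 8.04 at 2 h and 9.40, 9.43 and 9.43 at 6 h, a rise of 1.39 ± 0.32 (SE) or 2.62-fold (limma adjusted p = 0.00586). Cdkn2d and Rbl2 rose by 0.49 ± 0.09 (SE) and 0.48 ± 0.10 (SE). Cdkn1a (p21), a p53 target and CDK inhibitor, fell by 0.75 ± 0.13 (SE) or 1.69-fold. Of 23 p53 targets 3 rose and 7 fell (median -0.18), among them Eda2r with -0.81 ± 0.13 (SE), while Perp rose by 0.77 ± 0.13 (SE) or 1.70-fold. The count of falls was 11 without RA 6 h array A and 4 without RA 6 h array C. Of 22 apoptosis regulators 7 rose and 2 fell (median 0.07), and 5 fell without array C of the no RA group. The pro-apoptotic genes Bcl2l11 (Bim), Casp8 and Bid rose by 0.77 ± 0.08 (SE), 0.70 ± 0.08 (SE) and 0.64 ± 0.08 (SE), as did the inhibitor gene Birc2 by 0.69 ± 0.17 (SE), and Casp9 fell by 0.54 ± 0.07 (SE). Casp9 was -0.29 (log2 difference) when all probe sets of the gene were averaged.

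In ribosome biogenesis, 30 of 61 measured genes rose, 0 fell and 31 did not pass (median 0.21), and 2 fell without array C of the no RA group. Ddx56, a nucleolar RNA helicase gene, read 9.19, 9.09 and 9.08 at 2 h and 10.27, 10.15 and 10.18 at 6 h, a rise of 1.08 ± 0.06 (SE) or 2.11-fold (limma adjusted p = 1.74e-06). Nop56, a core protein of box C/D particles, read 12.33, 12.28 and 12.14 at 2 h and 13.20, 13.17 and 13.10 at 6 h, a rise of 0.91 ± 0.07 (SE) or 1.88-fold. Rrp12 and Noc3l, which act in ribosomal RNA processing and subunit export, rose by 0.65 ± 0.08 (SE) and 0.64 ± 0.10 (SE). CACGTG, the E-box bound by MYC proteins among others, was in 18.2% of the promoter windows of this list (10 of 55), against 8.72% of windows of all genes tested; the shares among windows of rising and of falling genes were 10.3% and 10.0%.

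Of 11 genes of the Myc network, 1 rose and 2 fell (median 0.00), and 2 rose without RA 2 h array A. Mycn, the MYC paralogue that is high in ES cells, read 12.22, 12.02 and 12.03 at 2 h and 11.11, 11.04 and 10.69 at 6 h, a difference of -1.14 ± 0.17 (SE) or 2.21-fold (limma adjusted p = 0.000354). Mnt, a repressor that competes for MAX, fell by 0.83 ± 0.22 (SE) or 1.78-fold, and Mlx rose by 0.40 ± 0.09 (SE). Mycn was -0.69 and Mnt -0.44 (log2 difference) averaged over all probe sets of the gene.

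In the splicing list 13 of 40 rose and 3 fell (median 0.08). All 4 Clk genes, whose kinases phosphorylate SR splicing factors, rose. Clk2 read 8.66, 8.61 and 8.72 at 2 h and 10.48, 10.51 and 10.45 at 6 h, a rise of 1.82 ± 0.25 (SE) or 3.52-fold (limma adjusted p = 0.000255). Clk1, Clk3 and Clk4 rose by 0.95 ± 0.07 (SE), 0.82 ± 0.15 (SE) and 0.61 ± 0.07 (SE), 1.93-fold, 1.76-fold and 1.52-fold. Srpk2, of another family of SR protein kinases, fell by 1.02 ± 0.14 (SE) or 2.02-fold, and the SR factor gene Srsf5 by 0.49 ± 0.11 (SE) or 1.4-fold.

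Proteasome genes gave 8 rises and 1 fall of 37 (median 0.10), led by the ATPase gene Psmc4 with 0.44 ± 0.06 (SE) and by Psmd9 with 0.35 ± 0.08 (SE), and 5 rose without RA 2 h array C or RA 6 h array C. In the mitochondrial respiratory chain 9 of 63 rose and 2 fell (median 0.02), a share of rises below that of all genes. Cox7c and Ndufa5 rose by 0.34 ± 0.06 (SE) and 0.32 ± 0.06 (SE), and the succinate dehydrogenase gene Sdhd fell by 0.29 ± 0.06 (SE). Rises there numbered 5 without RA 2 h array A, 4 without RA 6 h array A or B and 3 without RA 2 h array C or RA 6 h array C.

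Polycomb genes rose in 9 of 26 and fell in 4 (median 0.03), and 2 fell without RA 2 h array B or C or RA 6 h array A. Bmi1, a core subunit of Polycomb repressive complex 1, read 6.89, 6.88 and 7.04 at 2 h and 8.03, 7.78 and 8.13 at 6 h, a rise of 1.04 ± 0.09 (SE) or 2.06-fold, and its second probe set rose by 0.77. Cbx2, Pcgf1 and Phc2 rose by 0.65 ± 0.10 (SE), 0.65 ± 0.16 (SE) and 0.57 ± 0.09 (SE). Pcgf5, a homologue of Bmi1 in variant complexes, fell by 0.72 ± 0.09 (SE) or 1.64-fold, and Phc1 by 0.34 ± 0.06 (SE). Of 31 histone lysine methylation enzymes 11 rose and 4 fell (median 0.19), with Kdm1b (0.56 ± 0.15, SE), Smyd2 (0.49 ± 0.08, SE) and Kdm4a (0.41 ± 0.07, SE) rising and Smyd3 falling by 0.38 ± 0.06 (SE). Cbx2 was 0.36, Pcgf5 -0.23 and Kdm4a 0.19 (log2 difference) as the mean over all probe sets of the gene.

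In the super elongation complex, which releases paused RNA polymerase II, 3 of 13 rose and 3 fell (median -0.08). Hexim1, which inhibits the kinase P-TEFb, rose by 0.64 ± 0.10 (SE) or 1.56-fold, and the scaffold gene Aff1 fell by 0.78 ± 0.12 (SE) or 1.71-fold, beside the fall of Mllt3 given above. The cyclin subunit gene Ccnt2 rose by 0.61 ± 0.10 (SE), but by 0.23 as the mean of its probe sets (limma adjusted p = 0.153). Of 14 genes of DNA methylation and Tet enzymes 3 rose and 3 fell (median -0.02). The methyltransferase gene Dnmt3b fell by 0.43 ± 0.09 (SE) or 1.35-fold, and Mbd3, a subunit of the NuRD complex, rose by 0.50 ± 0.08 (SE) or 1.41-fold. Dnmt3a gave opposite answers: 2 of its 5 probe sets rose, by 0.87 ± 0.09 (SE) on the brightest and 0.81, and 3 fell, by 1.06, 1.04 and 0.44, so the mean of the 5 was -0.17 and did not pass (limma adjusted p = 0.183). Aff1 was -0.44 (log2 difference) when all probe sets of the gene were averaged.

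Clock and PAR bZIP genes gave 5 rises and 6 falls of 17 (median -0.06), with Bhlhe40 and Per1 rising by 0.83 ± 0.16 (SE) and 0.58 ± 0.09 (SE), 1.78-fold and 1.5-fold, and Nfil3 and Rora rising by 0.96 ± 0.21 (SE) and 0.86 ± 0.13 (SE) from dim levels. Of 26 adhesion and epithelial to mesenchymal transition genes 5 rose and 10 fell (median -0.16), and 3 rose without RA 2 h array A. The claudins Cldn4 and Cldn7 fell by 0.88 ± 0.19 (SE) and 0.71 ± 0.13 (SE), 1.84-fold and 1.64-fold, and P-cadherin, Cdh3, by 0.82 ± 0.09 (SE) or 1.76-fold. The repressor of E-cadherin Zeb1 rose by 0.65 ± 0.10 (SE) or 1.57-fold, and another, Snai1, fell by 0.68 ± 0.12 (SE) or 1.60-fold. Twist1 and Twist2 rose by 0.55 ± 0.09 (SE), from a dim level, and 0.42. Rora was 0.27, Cdh3 -0.50 and Zeb1 0.24 (log2 difference) averaged over all probe sets of the gene.

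Markers of other cell types are given as counts because feeder cells could be in every sample. Of 33 measured feeder fibroblast markers, 31 were above the median of all values at 2 h, 2 rose and 3 fell (median -0.08), and 1 rose without RA 2 h array A or C or RA 6 h array A or B. The log2 of their summed signal was 14.84 to 14.98 at 2 h and 14.78 to 14.92 at 6 h, ranges that overlap. Mmp2, a gelatinase gene of fibroblasts, fell by 0.76 ± 0.09 (SE) or 1.70-fold. Fn1 fell by 0.28 ± 0.07 (SE) on its brightest probe set, but its other probe set rose by 0.34 and their mean of 0.03 did not pass. The part of feeder RNA in the results above was not tested, and fewer cells of a type cannot be told apart from less RNA per cell in bulk samples.

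The 11 ES cell markers, all above the median, gave 1 rise and 5 falls (median -0.28), and the log2 of their summed signal was 16.52 to 16.55 at 2 h and 16.30 to 16.38 at 6 h, without overlap and with no test. Primitive endoderm markers gave 2 rises and 3 falls of 19 (median -0.04), with the endoderm regulator Gata6 rising by 0.64 ± 0.10 (SE) or 1.56-fold; 1 rose without RA 2 h array A or B or RA 6 h array A, 1 fell without RA 2 h array A or RA 6 h array C, and 0 fell without RA 2 h array B or C or RA 6 h array A. Streak and mesoderm genes gave 6 rises and 2 falls of 21 (median -0.03), with Eomes, a T-box factor gene, rising by 0.88 ± 0.09 (SE) or 1.84-fold and Foxc1 and Gsc rising among dim values by 0.63 ± 0.12 (SE) and 0.55 ± 0.09 (SE); 1 fell without RA 2 h array A or B or RA 6 h array B. Gata6 was 0.19 and Foxc1 0.23 (log2 difference) as the mean over all probe sets of the gene.

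Trophoblast genes and simple keratins gave 3 rises and 5 falls of 18 (median -0.08), and 3 fell without RA 2 h array B or C or RA 6 h array C. Gata2 rose by 1.24 ± 0.12 (SE) or 2.37-fold, from arrays at 7.59, 7.99 and 7.75 to arrays at 9.20, 9.02 and 8.83, and Tfap2c and Krt19 fell by 0.67 ± 0.08 (SE) and 0.64 ± 0.11 (SE), 1.59-fold and 1.56-fold. Of 23 genes of the germ line and the totipotent-like state 8 rose and 4 fell (median 0.04), a count of rises that was 2 without RA 2 h array C or RA 6 h array A, 3 without RA 2 h array A or B and 5 without RA 6 h array B or C. Stra8, an RA-induced gatekeeper of meiosis, read 11.06, 10.91 and 10.91 at 2 h and 11.93, 11.86 and 12.73 at 6 h, a rise of 1.21 ± 0.33 (SE) or 2.32-fold (limma adjusted p = 0.0142) that was 0.93 and not called without RA 6 h array C. The meiotic genes Meioc and Rec8 fell by 0.85 ± 0.16 (SE) and 0.63 ± 0.11 (SE), 1.80-fold and 1.55-fold, Kit by 0.38 ± 0.10 (SE) and Mael by 0.37 ± 0.08 (SE).

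The 4 h arrays show when the net change took place. Of genes that rose, 2519 had a 4 h mean between the 2 h and 6 h means, 531 had one beyond the 6 h mean and 57 one on the far side of the 2 h mean, and of genes that fell 2098, 597 and 44. The median gene that rose had covered 76.8% of its net change by 4 h (quartiles 59.4% and 93.1%), and the median gene that fell 75% (55.9% and 96.4%). These shares are ratios of differences that use the same 2 h arrays, and they are given as a description. A limma test of the 4 h mean against the midpoint of the 2 h and 6 h means called 338 genes above it (1.86%) and 412 below it (2.26%).

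Single arrays moved those counts. Genes above the midpoint numbered 89 without RA 4 h array A, 91 and 159 without RA 4 h array B and C, 211, 188 and 188 without RA 2 h array A, B and C, 207 and 218 without RA 6 h array B and C, and 987 without array C of the no RA group. Genes below it numbered 157, 113 and 173 without RA 4 h array A, B and C, 272, 238 and 220 without RA 2 h array A, B and C, 273 without RA 6 h array B, and 1043 without array C of the no RA group.

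**Figure D4:**
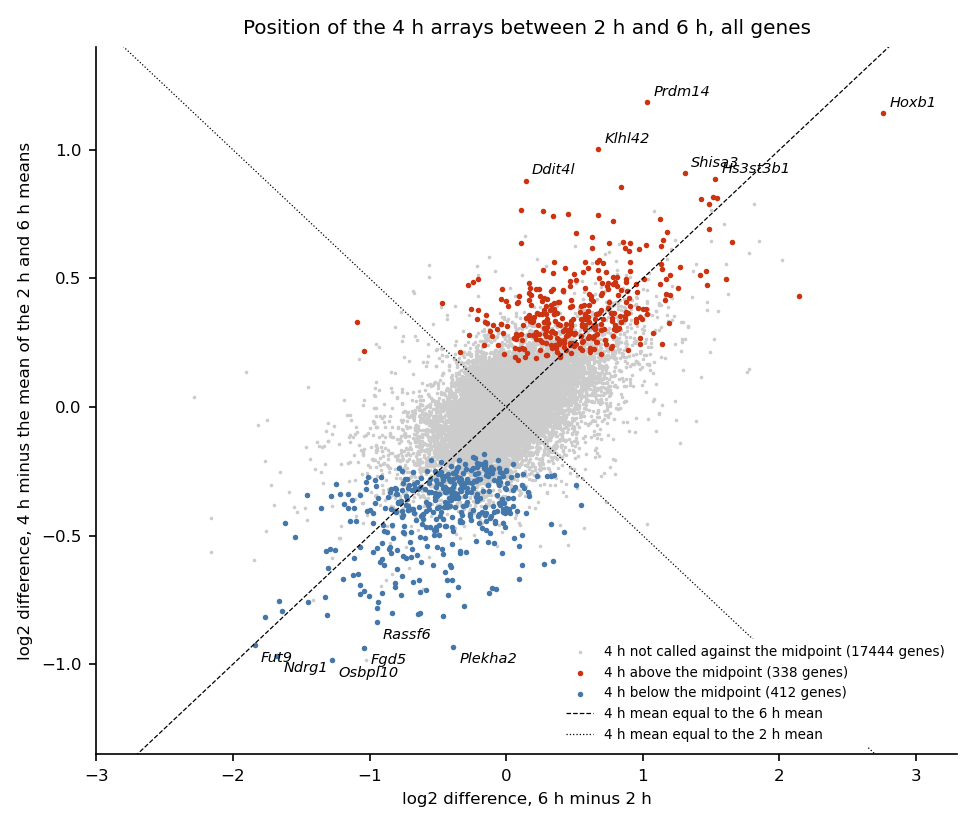
For each of 18194 genes, the log2 difference between 6 h and 2 h (horizontal axis) against the difference of the 4 h mean from the midpoint of the 2 h and 6 h means (vertical axis); red and blue points are the 338 genes above and 412 below the midpoint by limma, grey points the rest, and the 12 labelled genes are the 6 furthest each way. On the dashed line the whole net change was complete at 4 h, and Hoxb1 and Fut9 lie near it; Fry, at -2.29 and 0.04, changed evenly.

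Hoxb1 lay 1.14 ± 0.15 (SE) above the midpoint at 4 h (limma adjusted p = 0.00235): it rose by 2.52 ± 0.17 (SE) from 2 h to 4 h and differed by 0.24 ± 0.17 (SE) from 4 h to 6 h. Also above the midpoint were Hs3st3b1, a heparan sulphate sulphotransferase gene (0.89 ± 0.09 above), and Shisa3, an antagonist of Wnt and FGF receptors (0.91 ± 0.10 above). Klhl42, an adaptor of a ubiquitin ligase, lay 1.00 ± 0.12 (SE) above: it averaged 7.55 at 2 h, 8.88 at 4 h and 8.22 at 6 h. Ddit4l averaged 7.57, 8.52 and 7.71 and lay 0.88 ± 0.16 (SE) above, with a net difference of 0.14 ± 0.18 (SE) that did not pass. Those values are of its brightest probe set. Its other probe sets gave net differences of -0.57, which passed, and -0.42, which did not. Prdm14, a naive pluripotency and germ line factor gene, averaged 8.99, 10.69 and 10.02 and lay 1.19 ± 0.29 (SE) above; its net rise of 1.03 ± 0.34 (SE) passed narrowly (limma adjusted p = 0.0353) and was lost without RA 2 h array A, B or C or RA 6 h array A or B, with differences of 0.88 to 1.05, and under a trended and robust variance model.

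Below the midpoint lay Fut9 (0.93 lower), Ndrg1 (0.97 lower) and the oxysterol-binding protein gene Osbpl10, which averaged 7.67 at 2 h, 6.05 at 4 h and 6.39 at 6 h and lay 0.99 lower. Fgd5, an exchange factor gene for CDC42, averaged 7.78, 6.32 and 6.74 and lay 0.94 lower. Rassf6, of the RAS association domain family, lay 0.84 lower, with the 6 h level dim. Plekha2 came back most: it averaged 9.78 at 2 h, 8.65 at 4 h and 9.39 at 6 h, 0.93 below the midpoint, with a net difference of -0.39 ± 0.12 (SE) that was lost without RA 2 h array B (-0.36) or C (-0.34) or RA 6 h array C (-0.33). Fos was lowest at 4 h too, 0.48 below the midpoint (limma adjusted p = 0.0178), with an average of 11.91 between 12.47 and 12.32.

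Other genes changed evenly or late. Fry fell by 1.11 ± 0.07 (SE) from 2 h to 4 h and by 1.18 ± 0.07 (SE) from 4 h to 6 h. Cidea fell by 0.82 and then by 1.09, Vsir rose by 1.04 and then by 0.74, and Pck2 rose by 0.49 and then by 0.78. Tfcp2l1 fell by 0.32 and then by 0.44, where Fgf4 fell by 1.28 before 4 h and differed by -0.03 after it. Cdkn1a differed by -0.10 before 4 h and fell by 0.65 after it (limma adjusted p = 0.0479). Each of these pairs of steps shares its 4 h arrays, so the values are given side by side.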

How the data were processed

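RNA of KH2 cells was hybridised to Affymetrix mouse arrays, 3 for each of 4 groups. The values are the deposited log2 signals of 45101 probe sets, normalized by the submitters by a method not given in the sources used here; limma 3.4.3 is named in the submitters' processing notes. Of these probe sets, 34958 named 1 gene in GEO's platform annotation, 932 several and 9211 none; 34754 were matched to the RefSeq gene table by gene identifier. Each of 18194 genes was represented by its brightest probe set over all 12 arrays. Other probe sets of a gene can differ: 229 genes had probe sets called in both directions.

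Under R 4.3.3, limma 3.58.1 (functions lmFit, eBayes) fitted a mean per group to all 12 arrays; residual degrees of freedom were 8, the prior 3.78. P-values had Benjamini-Hochberg adjustment over all genes, with a threshold of 0.05. The number of arrays limits the precision. The contrasts were 6 h minus 2 h and 4 h minus the mean of 2 h and 6 h, and, for named genes, the steps from no RA to 2 h, 2 h to 4 h and 4 h to 6 h. The fit was tested on simulated data. Tables and figures were made in Python 3.11.15.

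The lists and the other members described were chosen with earlier results of these data known. Genes were named by rule: the 15 largest rises and falls among called genes whose arrays did not overlap, up to 4 called genes each way per list (or the 2 largest differences where under 2 were called), the 6 furthest from the midpoint each way, and a fixed set of RA, pluripotency and reference genes. Where a rule named many genes, only some are printed. Fgfr2, Meis1, Mllt3, Dnmt3a and Fn1 show where probe sets disagreed. Alternatives covered normalization, the choice of probe set, dim genes, the variance model, the arrays in the fit, the threshold, single arrays left out and the replicate letter as a block. Single RA 4 h arrays were left out for the midpoint counts only. The counts, lists and named genes of 6 h against 2 h were not recomputed without them. The letters A, B and C were not found to pair arrays: deviations of arrays with the same letter correlated at -0.053, 0.005 and -0.065.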

Additional observations from a re-analysis of the deposited data

How the results depend on the processing

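The counts of rises and falls between 2 h and 6 h stayed within 1.5 times of 3107 and 2739 under all alternatives but a pair: with every probe set counted on its own, 5121 rose and 4124 fell, and at an adjusted p under 0.01, 2038 rose and 1581 fell. Leaving out 1 array of the 2 h, 6 h or no RA group gave 2441 to 3713 rises and 1985 to 3481 falls. Both counts were highest without array C of the no RA group. With the replicate block, 3072 rose and 2766 fell, and 341 and 418 genes lay above and below the midpoint at 4 h. Under this block Hoxa7 (adjusted p = 0.0515, limma) and Prdm14 (0.0509) lost their calls and Hoxc4 (0.0357) gained one. The midpoint counts, 338 above and 412 below, moved more: 1065 and 1168 with array weights, 986 and 1042 with the 9 RA arrays alone, 78 and 87 at an adjusted p under 0.01, and 89 to 987 and 113 to 1043 with 1 array left out. The array weight was 0.177 for array C of the no RA group and 0.765 to 1.88 for the other arrays. The cause of the moves was not tested.

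Of the 297 named genes that were called, 200 kept the call under every alternative run for single genes. The call was lost in 67 when 1 array of the 2 h, 6 h or no RA group was left out. The direction turned when probe sets were averaged within a gene for Cbx7 (0.064), Cenpa (0.13), Dnmt3a (-0.17), Fn1 (0.032), Setd7 (0.060) and Uqcrq (-0.021), and with probe sets without a suffix for Cenpa (0.65), Meis1 (-0.014) and Stard4 (-0.11); these genes' probe sets differ in direction. The counts of list members that rose or fell were also compared with their main values under each alternative run for lists. Of these comparisons 1629 were equal or within 1.5 times, 165 were lower by more and 86 higher by more. For the lists described above, changes are printed only for arrays left out. Genes below the median of all values had no test against background, which limits what can be said of them.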
